A study of Mus musculus with 6 samples.

Results

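The transcription factors that divide helper T cells into lineages were followed in miR-142-deficient regulatory T (Treg) cells. They were 9 genes taken by name from the 24421 genes of the count matrix: Tbx21, Eomes, Runx3, Prdm1, Bcl6, Maf, Tox, Zbtb7b and Hlx. All 9 were present, 8 had enough reads to be tested, and Hlx did not. CD4+YFP+ Treg cells had been sorted from the spleens of untreated female C57BL/6 mice aged 8 to 11 weeks, and 1 RNA-seq library was made from each mouse. The 3 control mice carried Foxp3Cre (WT). The 3 knockout mice carried Foxp3Cre and miR-142fl/fl (KO), so that miR-142 was deleted in Foxp3-expressing cells. Both groups carried the Cre-YFP fusion driven by the Foxp3 locus, which also marked the sorted cells. The knockout mice develop systemic autoimmunity, and a change inside the Treg cell and a change brought about by inflammation in the host cannot be told apart in this design.

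Helper T cells take up different fates under the control of a small set of transcription factors that often repress each other. T-bet (Tbx21) drives the Th1 fate, Bcl6 drives follicular helper cells and is opposed by Blimp-1 (Prdm1), and ThPOK (Zbtb7b) keeps CD4 identity against Runx3, which supports the cytotoxic CD8 fate. Treg cells reuse several of these factors: Blimp-1 marks effector Treg cells, and T-bet or Bcl6 adapt subsets of Treg cells to Th1 or follicular responses.

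The deleted microRNA gives rise to mature strands from both arms of its hairpin, which is encoded on chromosome 11. Both strands are shown because their seeds, the bases at positions 2 to 8, define the sites searched for in the factors' transcripts. The 3p strand is shown once with its usual seed in capitals (3p.1) and once with the seed of its isoform that starts 1 base later (3p.2). The sequences are from RefSeq (GRCm38.p6).
miR-142-3p.1: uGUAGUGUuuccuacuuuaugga
miR-142-3p.2: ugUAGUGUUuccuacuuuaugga
miR-142-5p: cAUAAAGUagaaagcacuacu

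Across the annotated 3′ UTRs of the 9 factors there was no 7- or 8-base match to either 3p seed, and 1 match to the 5p seed. That match lay in Bcl6, was 8 bases long and began at base 73 of the 3′ UTR, in exon 10 of 10, at chr16:23966045-23966052 (mm10). It is printed below as the sense strand of the transcript, since Bcl6 is encoded on the minus strand, with the 8 matching bases in capitals.
Bcl6 3′ UTR: tgctgtaacACTTTATAcaaaggtca
The 8-base site searched for on the sense strand was ACACTACA for 3p.1, AACACTAA for 3p.2 and ACTTTATA for 5p, and the 7-base sites were the first 7 and the last 7 bases of each. The 3p.1 and 3p.2 sites can overlap. Among the 10786 tested genes with an annotated 3′ UTR, 12.2% held a 3p.1 site, 15.4% a 3p.2 site and 23.5% a 5p site, and 5.15% held an 8-base 5p site. The median 3′ UTR of the 9 factors was 1882 bases against 1186 bases over the tested genes. A seed match is a description of the sequence, and its use in these cells was not measured.

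Libraries held 13883069 to 24042994 counts, and 3 counts correspond to between 0.123 and 0.227 CPM (counts relative to the effective library size). The annotated transcript Mir142b, which overlaps the deleted locus, stood at 9.05, 4.14 and 5.81 CPM in the WT libraries and at 0.389, 0.379 and 0.342 CPM in the KO libraries. KO replicate 1 stood apart from the other libraries. Markers of macrophages and monocytes summed to 2880 CPM there, and all 12 of them were highest in it. They summed to 23.2 to 80.9 CPM in the other KO libraries and 8.56 to 12.9 CPM in WT. Neutrophil markers summed to 901 CPM in KO replicate 1, 16.7 to 48.5 CPM in the other KO libraries and 4.37 to 5.91 CPM in WT. For dendritic cell markers these sums were 155, 5.75 to 6.71 and 2.99 to 4.04 CPM. The fold change of each factor is therefore also given without KO replicate 1. Treg markers summed to 4816 to 5549 CPM in WT and 6761 to 7688 CPM in KO, and none of the 7 was highest in KO replicate 1. They did not move together. Il2ra rose most, from 726 to 799 CPM in WT to 2258 to 3073 CPM in KO, and Foxp3 and Tnfrsf18 were also higher. Ctla4 and Ikzf2 overlapped between the groups. Cd4 (1005 to 1043 CPM in WT, 833 to 926 CPM in KO) and Cd3e (626 to 733 and 590 to 594 CPM) were lower in every KO library. Neither passed the test described below (edgeR FDR = 0.123 for Cd4 and 0.178 for Cd3e).

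Of the 8 factors tested, Eomes, Runx3 and Prdm1 rose and Bcl6 fell in KO Treg cells, and Tbx21, Maf, Tox and Zbtb7b did not pass the test (edgeR quasi-likelihood test, Benjamini-Hochberg FDR under 0.05). Over all 11658 genes tested, 18.8% passed, 11.6% in the upward and 7.27% in the downward direction. The same 4 factors passed without KO replicate 1, where 9.69% of 11429 tested genes were higher and 7.59% lower. The libraries of KO and WT did not overlap for 6 of the 8 factors, 4 with KO above WT and 2 with KO below, which was the case for 41% of all tested genes (22.2% above and 18.8% below). Without KO replicate 1 these were still 6 of 8, against 49.6% of tested genes. With 3 mice against 3, an exact two-sided permutation test of a single gene cannot give a p-value under 0.1. In bulk libraries, a larger share of cells that express a factor and more of its RNA in each cell cannot be told apart.

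**Figure D1:**
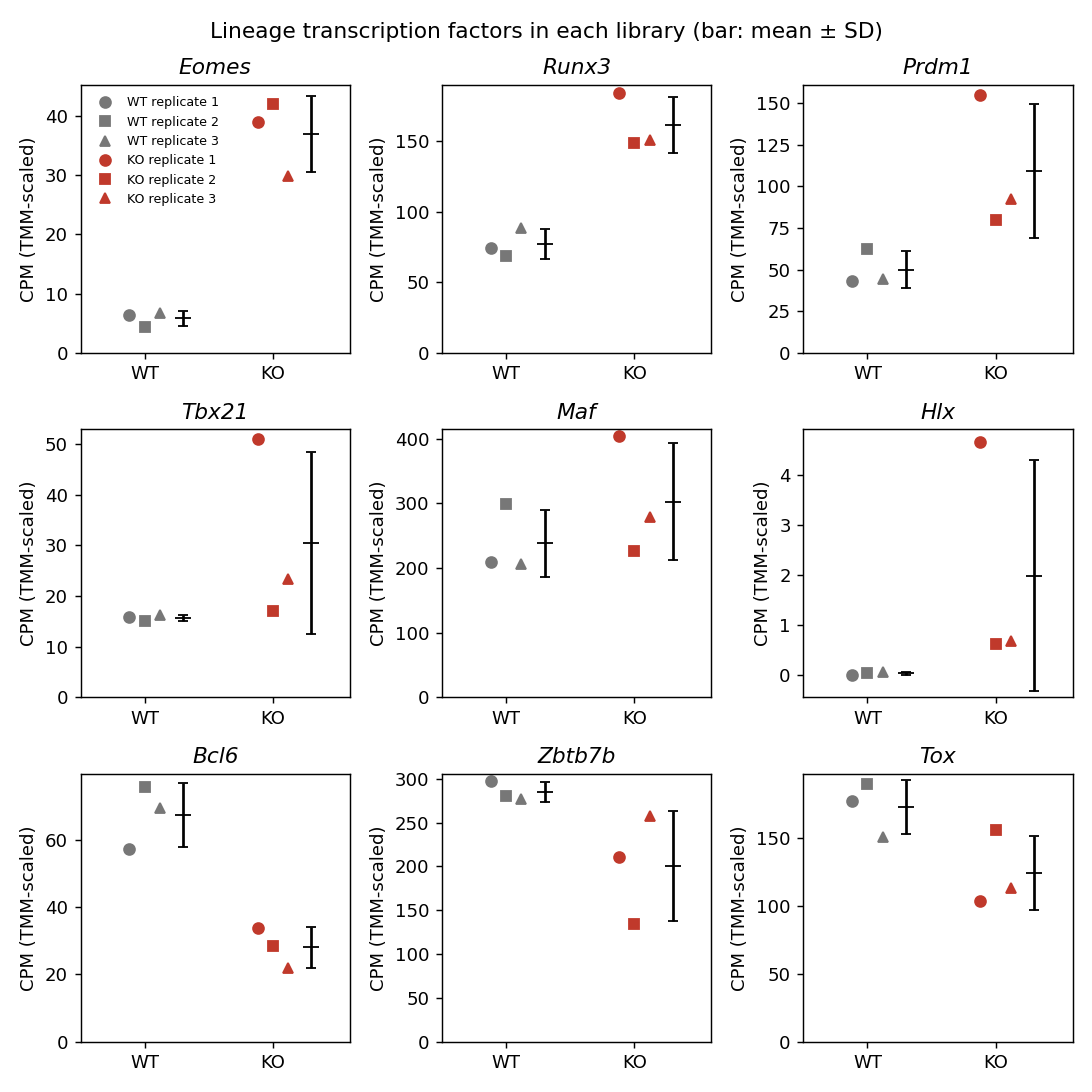
CPM of each of the 9 factors by library, with 1 panel per gene and its own axis; points are libraries, horizontal bars are group means and error bars are SD (n = 3 mice). Eomes has the largest fold change of the 8 tested factors, with means of 5.79 (WT) and 37.0 CPM (KO), while KO replicate 1 is far above the other KO libraries for Tbx21 (51.0 against 17.1 and 23.3 CPM) and Hlx.

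Eomes, a T-box factor of cytotoxic and memory T cells and of natural killer (NK) cells (chromosome 9, 118478212 to 118486132), had the largest change among the 8 tested factors. It was at 6.34, 4.35 and 6.69 CPM in the WT libraries and at 39.1, 42.0 and 29.8 CPM in the KO libraries. All 3 KO libraries lay well above the WT libraries, and KO replicate 1 was not the highest of them. The mean rose from 5.79 ± 1.27 to 37.0 ± 6.36 CPM (SD, n = 3), a log2 fold change of 2.68 (SE 0.22, 95% interval 2.17 to 3.18; edgeR FDR = 0.00088) or 6.40-fold, which placed Eomes 44th of the tested genes by p-value. Without KO replicate 1 the log2 fold change was 2.63 (edgeR FDR = 0.000356). The 9 markers of NK cells and type 1 innate lymphoid cells summed to 2.93 to 4.43 CPM in WT, 3.08 to 3.41 CPM in KO replicates 2 and 3, and 237 CPM in KO replicate 1, where 5 of them were highest. Most of that last sum was Tyrobp (101 CPM) and Fcer1g (126 CPM), which myeloid cells also express. Klra8, Klra4 and Cma1 were at 0 in all 6 libraries, and the NK receptor gene Ncr1 was at 0.111 CPM or less. In KO replicates 2 and 3 the markers did not move together: Klrb1c was at 0.303 and 0.821 CPM against 2.38 to 3.94 CPM in WT, and Gzma at 0.984 and 1.37 CPM against 0.0616 to 0.221 CPM. Their part in the rise of Eomes was not tested.

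Runx3, the Runt-family factor that represses Cd4 and supports cytotoxic programmes (chromosome 4, 135120652 to 135177990), was at 74.4, 68.2 and 88.7 CPM in WT and at 184, 148 and 151 CPM in KO. Every KO library was above every WT library. The log2 fold change was 1.06 (SE 0.13, 95% interval 0.75 to 1.38; edgeR FDR = 0.00324), a 2.09-fold rise from 77.1 ± 10.5 to 161 ± 19.8 CPM, and it was 0.94 without KO replicate 1 (edgeR FDR = 0.00204). The 4 CD8 T cell markers summed to 18.4 to 19.6 CPM in WT, 18.7 to 21.9 CPM in KO replicates 2 and 3 and 60.4 CPM in KO replicate 1, where all 4 were highest. Cd8a itself was at 19.0 CPM in that library and at 1.97 CPM or less in the other 5.

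Prdm1, which encodes the repressor Blimp-1 of effector Treg cells and plasma cells (chromosome 10, 44437177 to 44528501), was at 43.0, 62.6 and 44.2 CPM in WT and at 155, 80.1 and 92.6 CPM in KO. The groups did not overlap, but KO replicate 1 held 1.80 times the mean of the other KO libraries. The mean rose from 49.9 ± 11 to 109 ± 40.3 CPM, a log2 fold change of 1.13 (SE 0.27, 95% interval 0.50 to 1.76; edgeR FDR = 0.0280), and without KO replicate 1 the change was 0.77 (edgeR FDR = 0.0211). The call was lost when WT replicate 1, 2 or 3 was left out (edgeR FDR = 0.105, 0.0558 and 0.104). The 7 plasma cell markers summed to 80.4 to 100 CPM in WT, 106 to 114 CPM in KO replicates 2 and 3 and 153 CPM in KO replicate 1, with 6 of the 7 highest there. Most of each sum was Xbp1, at 77.0 to 97.9 CPM in WT and 103 CPM in KO replicates 2 and 3. In those KO libraries the other markers did not move together. Mzb1 and Slpi were above WT, Jchain (1.29 and 8.49 CPM against 0.996 to 2.91 CPM), Sdc1 and Derl3 overlapped WT, and Tnfrsf17 was at 0. The part of plasma cells in the rise of Prdm1 was not tested.

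Bcl6, the repressor that drives follicular helper and follicular regulatory T cells (chromosome 16, 23965052 to 23988852), went the other way. It was at 57.1, 75.6 and 69.4 CPM in WT and at 33.7, 28.4 and 21.8 CPM in KO. The highest KO library, replicate 1, was still below the lowest WT library. The mean fell from 67.4 ± 9.40 to 28.0 ± 6.00 CPM, a log2 fold change of -1.27 (SE 0.18, 95% interval -1.69 to -0.84; edgeR FDR = 0.00497) or 2.41-fold lower, and without KO replicate 1 the log2 fold change was -1.44 (edgeR FDR = 0.00154). Bcl6 is the factor with the 5p seed match printed above. The 10 markers of B cells and germinal centre B cells, which also express Bcl6, summed to 53.3 to 66.9 CPM in WT, 21.7 to 34.5 CPM in KO replicates 2 and 3 and 301 CPM in KO replicate 1, where 9 of them were highest. These markers thus moved down with Bcl6 in KO replicates 2 and 3 and up in KO replicate 1, and their part in the fall of Bcl6 was not tested.

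Tbx21, the Th1 factor T-bet (chromosome 11, 97098071 to 97115331), was at 15.8, 15.0 and 16.2 CPM in WT and at 51.0, 17.1 and 23.3 CPM in KO. The WT libraries were close together and the KO libraries all above them, but KO replicate 2 exceeded the highest WT library by less than 1 CPM. The means were 15.6 ± 0.616 and 30.5 ± 18.0 CPM, with a log2 fold change of 0.97 (SE 0.37, 95% interval 0.09 to 1.84) that did not pass the test (edgeR FDR = 0.112). KO replicate 1 held 2.52 times the mean of the other KO libraries, and without it the log2 fold change was 0.36 (edgeR FDR = 0.175). The call depended on the test: DESeq2 gave a log2 fold change of 0.96 with an adjusted p of 0.0335.

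Maf, which drives Il10 and Il21 in several T cell subsets (chromosome 8, 115682942 to 115707794), was at 209, 299 and 207 CPM in WT and at 404, 226 and 278 CPM in KO. The groups overlapped, since WT replicate 2 was above KO replicates 2 and 3. The log2 fold change was 0.35 (SE 0.24, 95% interval -0.21 to 0.90; edgeR FDR = 0.340) and 0.07 without KO replicate 1 (edgeR FDR = 0.835). KO replicate 1, the library with 2880 CPM of macrophage and monocyte markers, stood above the other KO libraries for Maf, and the part of those cells in it was not tested.

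Tox, a nuclear factor of CD4 lineage development and of exhausted T cells (chromosome 4, 6686353 to 6991557), was at 178, 190 and 151 CPM in WT and at 104, 156 and 113 CPM in KO. KO replicate 2 lay above WT replicate 3, and the other KO libraries lay below all WT libraries. The log2 fold change was -0.48 (SE 0.17, 95% interval -0.87 to -0.09; edgeR FDR = 0.0877), and -0.38 without KO replicate 1 (edgeR FDR = 0.140). The call depended on the fit: Tox passed by DESeq2 (adjusted p = 0.0278), and in edgeR with library size alone (FDR = 0.0467), with a replicate block (FDR = 0.0472) or without KO replicate 2 (FDR = 0.0146).

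Zbtb7b, which encodes ThPOK (chromosome 3, 89377644 to 89394776), was at 297, 280 and 277 CPM in WT and at 211, 134 and 257 CPM in KO. All KO libraries were below the WT libraries, with a wide spread among them. The log2 fold change was -0.51 (SE 0.21, 95% interval -1.01 to -0.0014), which did not pass the test (edgeR FDR = 0.143), and it was -0.56 without KO replicate 1 (edgeR FDR = 0.142). The antisense gene Gm15417 overlaps Zbtb7b, at a mean of 2.75 CPM in WT and 5.02 CPM in KO, and the unstranded counts cannot assign shared reads to either gene. Bcl6, Eomes, Maf and Tox also overlap annotated genes on the opposite strand.

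Hlx, a homeobox factor that acts with T-bet in Th1 cells (chromosome 1, 184727140 to 184732619), was nearly undetected in WT, with 0, 1 and 1 counts. The KO libraries held 84, 8 and 10 counts, or 4.66, 0.606 and 0.684 CPM. All KO libraries were above WT, but most of the reads came from KO replicate 1, which held 7.23 times the mean CPM of the other KO libraries. It passed the minimum of 1 CPM in KO replicate 1 only and was not tested. The ratio of its summed counts, scaled to library size, was 65.3 in KO over WT (exact 95% interval 17.6 to 547), and 19.0 without KO replicate 1 (4.55 to 169), intervals that cover counting error only.

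**Figure D2:**
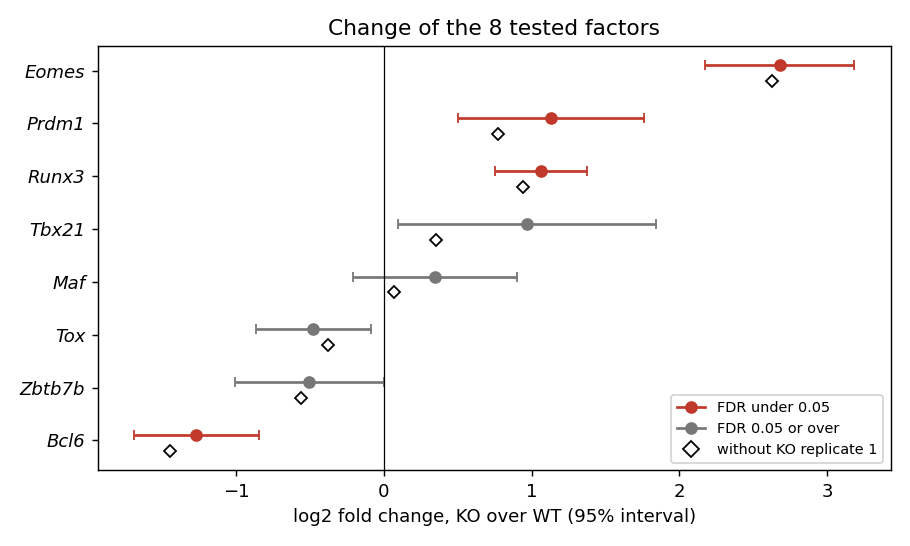
Log2 fold change of KO over WT for the 8 tested factors, with 95% intervals from the fit of all libraries (circles, red where the FDR is under 0.05) and the values without KO replicate 1 as diamonds. Eomes (2.68 and 2.63), Runx3 (1.06 and 0.94) and Bcl6 (-1.27 and -1.44) lie away from 0 in both fits, while Tbx21 moves from 0.97 to 0.36 and Maf from 0.35 to 0.07.

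Levels were compared between the factors per kilobase of exon (RPKM). The length was that of all annotated exons of a gene, and the transcripts present in these cells were not determined. The order between genes holds for that length only. In WT Treg cells Zbtb7b was highest, at 50.9 ± 1.96 RPKM, followed by Maf at 28.9 ± 6.36, Tox at 22.7 ± 2.61 and Runx3 at 15.4 ± 2.10 RPKM. Bcl6 (10.1 ± 1.40 RPKM) and Prdm1 (8.95 ± 1.97 RPKM) had overlapping ranges and so no order between them. Tbx21 at 6.29 ± 0.247 RPKM and Eomes at 1.39 ± 0.305 RPKM were lower, and Hlx was at 0.0141 RPKM. The ranges of all other neighbours in this order were separate.

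In KO Treg cells the order was different. Maf (36.7 ± 11.1 RPKM), Zbtb7b (35.9 ± 11.2 RPKM) and Runx3 (32.2 ± 3.96 RPKM) overlapped at the top. Zbtb7b stood above Runx3 in KO replicates 1 (37.7 against 36.8 RPKM) and 3 (46.0 against 30.2 RPKM). In KO replicate 2 it stood below Runx3 (23.9 against 29.7 RPKM). Prdm1 at 19.6 ± 7.22 RPKM, Tox at 16.4 ± 3.63, Tbx21 at 12.3 ± 7.25 and Eomes at 8.90 ± 1.53 RPKM followed, each overlapping the next. Bcl6, at 4.17 ± 0.896 RPKM, lay below all of these without overlap, and Hlx was last at 0.871 ± 1.02 RPKM.

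**Figure D3:**
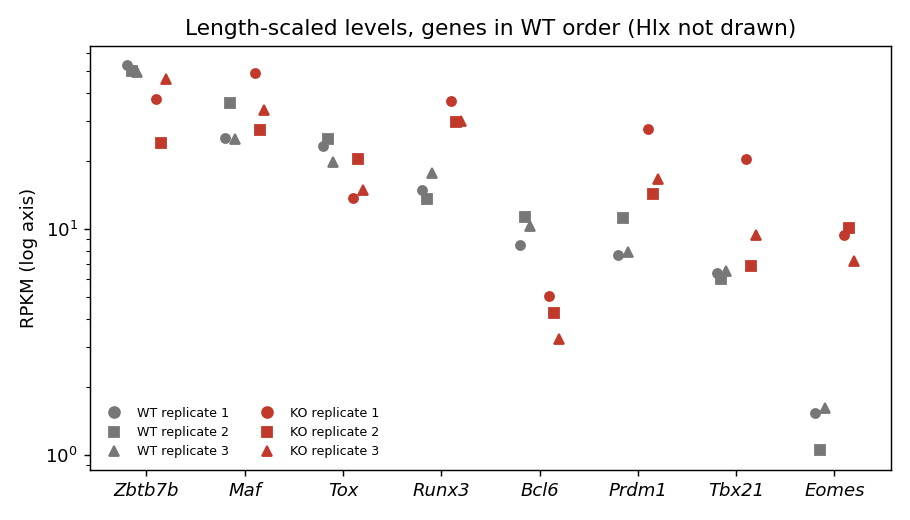
Level of 8 factors in RPKM on a log axis, with 1 point per library (WT grey, KO red) and genes ordered by their WT mean. Zbtb7b is highest in WT, with a mean of 50.9 RPKM, and Bcl6 is the lowest of the plotted factors in KO, with a mean of 4.17 RPKM below Eomes at 8.90 RPKM.

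Because several of these factors act in opposed or related pairs, the ratio within a pair was computed in each library, as log2 of reads per kilobase of the first gene over the second. For Bcl6 over Prdm1, which repress each other, the log2 ratio was 0.15, 0.0072 and 0.39 in WT and -2.47, -1.76 and -2.35 in KO. Per kilobase of annotated exon, the transcripts were thus about level in each WT mouse, and Prdm1 exceeded Bcl6 in each KO mouse. These levels depend on the exon lengths used, 6.70 kb for Bcl6 and 5.58 kb for Prdm1, but the difference between groups does not. The difference of means was -2.37 (0.18 ± 0.19 in WT and -2.19 ± 0.38 in KO) and stayed between -2.59 and -2.24 when each library was left out in turn.

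For Zbtb7b over Runx3, the factors that divide CD4 from CD8 T cells, the log2 ratio was 1.84, 1.88 and 1.48 in WT and 0.04, -0.31 and 0.61 in KO. Per kilobase of annotated exon, Zbtb7b exceeded Runx3 in all WT libraries, and the KO libraries lay on both sides of equality. The difference was -1.62 (-1.87 to -1.41 on leaving out each library). For Tbx21 over Eomes, the T-box factors of Th1 and cytotoxic cells, the ratio was 2.06, 2.52 and 2.01 in WT and 1.12, -0.56 and 0.39 in KO. The KO values were all lower and widely spread, with a difference of -1.88 (-2.28 to -1.44). In each of the 3 pairs the groups did not overlap. The exact two-sided permutation p was 0.1, the smallest 3 against 3 mice can give, and 0.1 after Benjamini-Hochberg adjustment over the 3 pairs. For Bcl6 over Prdm1 and Zbtb7b over Runx3 this was fixed by the single factors. There the first factor was lower and the second higher in every KO library than in every WT library. The ratios restate the changes of the single factors, and the share of other gene pairs that separate was not computed.

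**Figure D4:**
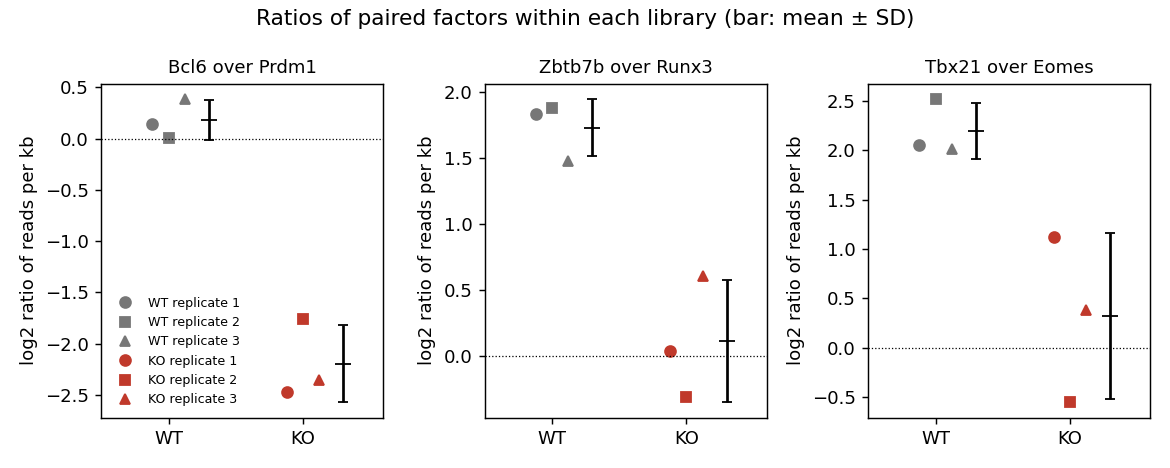
Log2 ratio of reads per kilobase within 3 pairs of factors, by library (points) with group means and SD (n = 3 mice). In each pair the KO libraries lie below the WT libraries, by a mean of 2.37 for Bcl6 over Prdm1, where WT sits near 0 and KO near -2.19.

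The closest relatives of the factors were examined next. Of 13 genes of the same families, 10 were tested, 1 rose and 3 fell, with a median log2 fold change of -0.39 against 0.02 over all tested genes. Runx2 rose beside Runx3, with a log2 fold change of 1.04 (edgeR FDR = 0.0168). Runx1, the other Runt-family factor of T cells, fell by 0.39 on the log2 scale (edgeR FDR = 0.0457), and Cbfb, the shared partner of the Runx proteins, fell by 0.43 (edgeR FDR = 0.0333). Tox2 fell by 0.47 on the log2 scale (edgeR FDR = 0.0180). Without KO replicate 1 the call of Runx1 was lost (edgeR FDR = 0.0626) and the other 3 held. Among 14 tested of 16 other regulators of T cell fate, 3 rose and none fell, with a median of -0.16. These were Myb (log2 fold change 2.06), Zeb2 (4.01, and 1.91 without KO replicate 1, which held 10.7 times the mean of the other KO libraries) and Satb1 (0.74). Tcf7, which encodes the TCF-1 factor of naive and follicular T cells, was at 1008 ± 25.5 CPM in WT and 564 ± 238 CPM in KO and did not pass the test (edgeR FDR = 0.0686).

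The genes usually placed under each factor were counted from lists chosen with earlier results of these data known, so the counts are a description. Their counts stand beside a background of 11.6% of tested genes higher and 7.27% lower, and 9.69% and 7.59% without KO replicate 1. In the follicular helper programme that accompanies Bcl6, 5 of 13 tested genes fell and none rose, with a median log2 fold change of -0.48. Cxcr5, the chemokine receptor that guides T cells into B cell follicles, was at 103, 81.0 and 77.8 CPM in WT and at 28.5, 20.5 and 18.8 CPM in KO. It fell in every KO library, by 1.95 on the log2 scale (SE 0.19; edgeR FDR = 0.00135). The next largest falls were those of Il6ra, the interleukin-6 receptor chain (-1.38), and Slamf6 (-0.62). Without KO replicate 1 the number that fell was 9 and 1 rose, and the 5 genes were among the 9.

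In the effector Treg programme, where Prdm1 acts, 7 of 12 tested genes rose and 1 fell, with a median log2 fold change of 1.27 (0.95 without KO replicate 1). Gzmb, the protease granzyme B, was at 4.87, 6.97 and 6.36 CPM in WT and at 120, 28.3 and 46.2 CPM in KO (log2 fold change 3.42, edgeR FDR = 0.00691). It was highest in KO replicate 1, and without that library its log2 fold change was 2.59. Fgl2, a secreted suppressive protein, had a log2 fold change of 2.57 (edgeR FDR = 0.00625), and of 2.03 without KO replicate 1. That library was at 364 CPM for Fgl2, against 121 and 195 CPM in the other KO libraries. Cd83, an activation marker, fell by 0.77 on the log2 scale (edgeR FDR = 0.00902). Il10, a cytokine made by effector Treg cells, was at 18.5 ± 14.8 CPM in WT and 26.7 ± 18.9 CPM in KO and did not pass the test (edgeR FDR = 0.632). Its log2 fold change turned from 0.53 to -0.24 without KO replicate 1, which held 3.04 times the mean of the other KO libraries. The WT libraries were also widely spread for Il10, at 5.11, 16.2 and 34.4 CPM.

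In the Th1 programme, linked to Tbx21, Hlx and Eomes, 8 of 15 tested genes rose and 2 fell, with a median log2 fold change of 0.87 that dropped to 0.06 over the 13 genes tested without KO replicate 1, where 6 rose and 2 fell. The chemokines Ccl3 (log2 fold change 6.29) and Ccl4 (4.86) had the largest rises and were highest in KO replicate 1. Without that library they were not tested, since fewer than 3 libraries exceeded 1 CPM. KO replicates 2 and 3 stood at 2.35 and 2.60 CPM for Ccl3 and 1.36 and 2.74 CPM for Ccl4, above all WT libraries. In WT they were at 0.277 CPM or less (Ccl3) and 0.387 CPM or less (Ccl4), so both passed the filter only through KO libraries. A fall of either could not have been called, so their place among the 8 cannot be set against the background. Havcr2, the receptor TIM-3, had a log2 fold change of 3.27, and of 2.31 without KO replicate 1. The genes that fell were Stat4, the transducer of interleukin-12 signals (-0.67), and Fasl (-2.19). Ifng, the defining Th1 cytokine, was at 14.5 ± 9.44 CPM in WT and 8.37 ± 5.82 CPM in KO, with a log2 fold change of -0.78 that did not pass the test (edgeR FDR = 0.402). KO replicate 1 held 2.99 times the mean Ifng level of the other KO libraries, and without it the change was -1.54 (edgeR FDR = 0.0833). Cxcr3, a receptor activated by T-bet, had a log2 fold change of 0.18 (edgeR FDR = 0.681), which turned to -0.27 without KO replicate 1 (edgeR FDR = 0.143).

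In the CD8 cytotoxic programme, linked to Runx3 and Eomes, 6 of 12 genes were tested, and 2 rose and none fell, with a median log2 fold change of 0.90 (0.43 without KO replicate 1). These were Il2rb, a receptor chain for interleukin-2 and interleukin-15, at 1029 ± 16.6 CPM in WT and 2098 ± 3.74 CPM in KO, and Ctsw, from 55.6 ± 2.45 to 114 ± 16.8 CPM. The CD4 identity list held Cd4, CD3 chain genes and other T cell genes, and its T cell receptor chain gene was absent from the matrix. Of its 8 genes present, 2 fell and none rose, with a median log2 fold change of -0.19. Cd40lg fell by 1.21 on the log2 scale (edgeR FDR = 0.0111) and Lck by 0.35 (edgeR FDR = 0.0449, and 0.0719 without KO replicate 1). Cd4 itself, which Runx3 represses in the CD8 lineage, had means of 1021 ± 19.6 (WT) and 876 ± 47.2 CPM (KO), and its change of -0.22 on the log2 scale did not pass the test (edgeR FDR = 0.123).

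In the Th2 programme 7 of 11 genes were tested, and 4 rose and 1 fell, with a median of 1.22 (1.21 and the same calls without KO replicate 1). Epas1 (3.14), the interleukin-33 receptor gene Il1rl1 (1.58) and Il4 (1.39) had the largest rises, and the chemokine receptor Ccr4 was lower (-1.02). In the Th17 programme 3 of 9 genes were tested, with a median of 0.53 (0.39 without KO replicate 1), and 1 rose, Ltb4r1 with a log2 fold change of 3.84, while Il17a and Il22 were at 0 in all libraries.

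**Figure D5:**
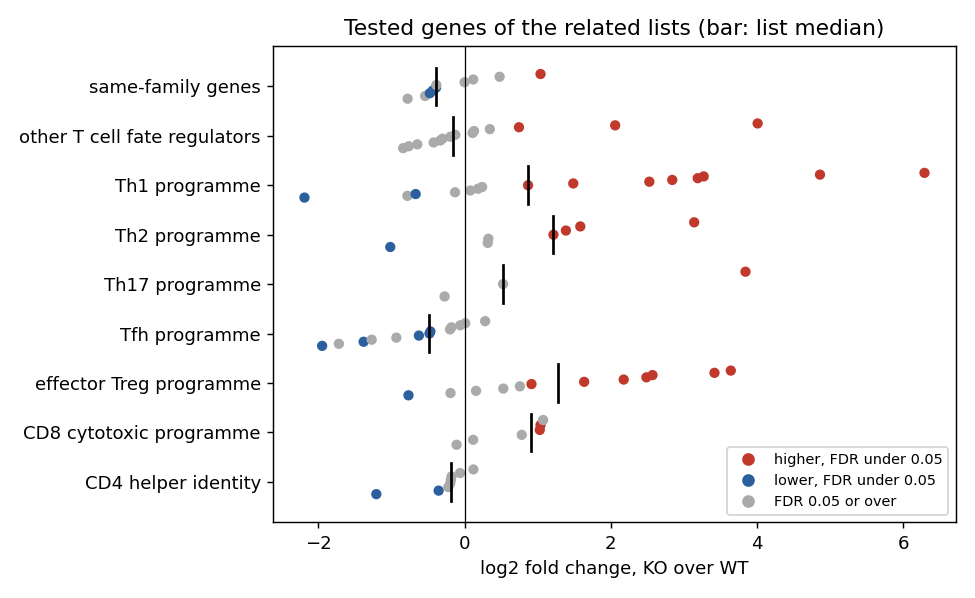
Log2 fold change of KO over WT for each tested gene (points, coloured where the FDR is under 0.05) of 9 related gene lists, with a bar at the median of each list. The follicular helper list has its median at -0.48 and the effector Treg list at 1.27, against 0.02 over all tested genes.

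For the 4 factors that passed the test, the tested genes with the most similar level across the 6 libraries were named by Pearson's r, as a description, since all share the split between WT and KO and the same libraries. Bcl6 was nearest to Tmem243 (r = 0.995), Gm16386 (0.992) and Agfg1 (0.992). Eomes was nearest to Akap7 (0.999), Mul1 (0.998) and Arpc1a (0.998), and Runx3 to Zfp516 (0.998), Gars (0.998) and Prkar1b (0.995). Prdm1 was nearest to Nipa2 (0.999) and Gbp8 (0.996). An r over 0.95 was reached by 505 genes with Eomes and 407 with Runx3, but by 118 with Bcl6 and 124 with Prdm1.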

How the data were processed

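Per the labels and the study's methods, TruSeq libraries of sorted Treg cells were sequenced on an Illumina HiSeq. Reads were aligned to mm10 with HISAT, and the authors deposited a matrix of raw counts per gene made with featureCounts. Tool versions and the gene annotation used for counting were not given in the sources used here. Strand was not used in counting.

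Genes with over 1 CPM in at least 3 libraries were kept, and KO was compared with WT in the 6 libraries by edgeR's quasi-likelihood test after TMM scaling (edgeR 4.0.16, R 4.3.3), with Benjamini-Hochberg adjustment over all tested genes. RPKM used exon lengths from GENCODE vM21 on the same build, which also gave coordinates and 3′ UTRs. DESeq2 1.42.0 was an alternative, and Python 3.11.15 with scipy 1.17.1 gave the exact tests. Log2 fold changes and CPM come from these counts. Replicates were separate mice. The members and gene lists were chosen with earlier results of these data known. Named genes were all 9 members and, in each other list, at most 3 called genes in each direction with the largest changes, plus 3 genes with the highest correlation for each called member. Tcf7, Ifng, Cxcr3, Il10, Cd4, Cd8a, Il17a, Il22, Gm15417, Mir142b and the single NK, Treg and plasma cell markers named lay outside this rule. They were chosen after their values were seen. An item that this rule would name is not reported here.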

Additional observations from a re-analysis of the deposited data

How the results depend on the processing

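Eomes, Runx3 and Bcl6 kept their direction and stayed past the threshold in all 15 alternative fits: with other scaling factors, filters and tests, and with each library left out in turn. On leaving out each library, their log2 fold changes ranged over 2.50 to 2.80, 0.94 to 1.17 and -1.44 to -1.13. Prdm1 ranged over 0.77 to 1.32, with its call lost without each of the WT libraries. Tbx21 ranged over 0.36 to 1.26, and passed without KO replicate 2 (1.26, edgeR FDR = 0.0348) and by DESeq2 (0.96). Tox ranged over -0.66 to -0.38 and passed without KO replicate 2 (-0.66, edgeR FDR = 0.0146), by library size alone (-0.56) and by DESeq2 (-0.49), which made 2 factors lower in those fits. Maf and Zbtb7b passed in none of these fits. Across the leave-one-out fits, 2 to 4 factors were higher and 1 to 2 lower, while over all genes 483 to 1403 were higher and 208 to 937 lower. By library size alone 47.0% of all calls were higher, against 61.4% with TMM scaling, and the median log2 fold change of all genes moved from 0.02 to -0.06. That scaling also made 1 of the other fate regulators lower. Without KO replicate 1, the follicular helper list had 1 gene higher and 9 lower, and the CD4 identity list 1 lower. With no filter Hlx passed (log2 fold change 5.60, edgeR FDR = 0.0251). The causes of these changes were not tested.

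The replicate numbers did not pair the mice: same-numbered WT and KO libraries had correlations of 0.08, -0.0056 and -0.195, and not every library correlated best with its own number. With a replicate block, 1061 genes were higher and 545 lower, and 2 factors were lower, because Tox passed (-0.49, edgeR FDR = 0.0472). No other factor's call changed under the block.

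Depth limits Hlx, which rests on 2 counts in WT and 102 in KO, 84 of them from KO replicate 1.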
